A study of Mus musculus with 18 samples.

Results

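The comparison described here is high against mid ECM tethering on soft substrates: 6 libraries of mouse embryonic stem cells (mESCs), 3 from soft substrates with high AHA and 3 from soft substrates with mid AHA, of 18 libraries in the series. The 6 libraries were taken by their labelled condition. All libraries came from wild-type E14 mESCs, an established line of the 129 background, cultured in medium with serum and LIF, a cytokine that maintains pluripotency. They spent 24 h on StemBond hydrogels, which are polyacrylamide gels coated with fibronectin. The co-factor AHA sets how firmly fibronectin is anchored to the gel. Both groups had a nominal stiffness near 750 Pa, and AHA was 80 mM (high) or 48 mM (mid). The other 4 groups, with 3 libraries each, were soft substrates with 16 mM AHA (low) and stiff substrates near 160 kPa with 16, 48 or 80 mM AHA. No genotype, drug or transgene separated the groups. The cells were held on a flat coated gel for a single period and belong to a single line, which limits what the groups can stand for. The labels do not say whether the 3 samples of a group were separate cultures, so p-values measure only the spread between these samples, which may be technical.

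Cells pull on a substrate through integrins, the receptors that bind matrix outside the cell and, through plaque proteins such as talin, vinculin and parvin, actin filaments inside it. Contractile filaments consist of actin, non-muscle myosin and the tropomyosins, caldesmon, calponins and transgelins that coat them. Many of these genes are controlled by the serum response factor SRF with its co-factors MRTF, which are released when actin monomers are used up, and by YAP with TEAD factors, which respond to tension. mESCs hold pluripotency through factors such as Oct4 (Pou5f1), Sox2, Nanog and Esrrb.

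Gene counts of the 6 libraries ranged from 7352315 to 8789185, and 18713 to 19387 genes had at least 3 counts. A library stood apart: in soft, high AHA replicate 1 the ERCC spike-in RNAs took 1.37% of gene and ERCC counts (95% Wilson interval 1.36 to 1.38%, which covers counting error only), against 0.607 to 0.725% in the other 17 libraries of the series. Results are therefore given without this library (17 libraries in the fit, 2 of them soft, high AHA) and with it (18 libraries), and a value with no number of libraries beside it is from the 17. Replicates differed by more than counting noise in all 6 within-group pairs, with a chi-square per degree of freedom of 2.24 to 2.44 between mid AHA libraries and 2.41 to 3.07 between high AHA libraries. The mESC label was checked against Pou5f1, Sox2, Nanog, Zfp42, Dppa5a and Utf1. Pou5f1 was at 531 to 584 CPM (read counts scaled by library size and TMM over tested protein-coding genes) and Sox2 at 319 to 365 CPM over the 6 libraries. The lowest value among the 6 genes was 119 CPM for Nanog.

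At high AHA, 9 genes rose and none fell. Of 13438 protein-coding genes tested, 9 (0.0670%) had an adjusted p under 0.05 in edgeR's quasi-likelihood test with 17 libraries, and all were higher at high AHA. DESeq2 called 11 genes higher and 0 lower. At an unadjusted p under 0.05, 502 genes (3.74%) were higher and 413 (3.07%) lower, and by DESeq2 368 were higher and 310 lower. With 18 libraries, 8 of 13223 genes (0.0605%) were called, again all higher, and 455 genes (3.44%) were higher and 492 (3.72%) lower at an unadjusted p under 0.05. Of the 9 genes, 7 were called in both fits. A total of 5 of the 9 code for proteins of contractile actin filaments: Tagln, Acta2, Cald1, Tpm1 and Tpm2. The remainder were the intermediate filament genes Nes and Krt19, the cortical adaptor gene Phldb2 and the ribosomal stalk gene Rplp1. Their levels averaged over the 6 libraries, in CPM per kilobase of exon, were 2341 for Rplp1, 129 for Tpm1, 79.1 for Tagln and 13.0 for Phldb2, with the other 5 between 33.2 and 72.4.

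**Figure D1:**
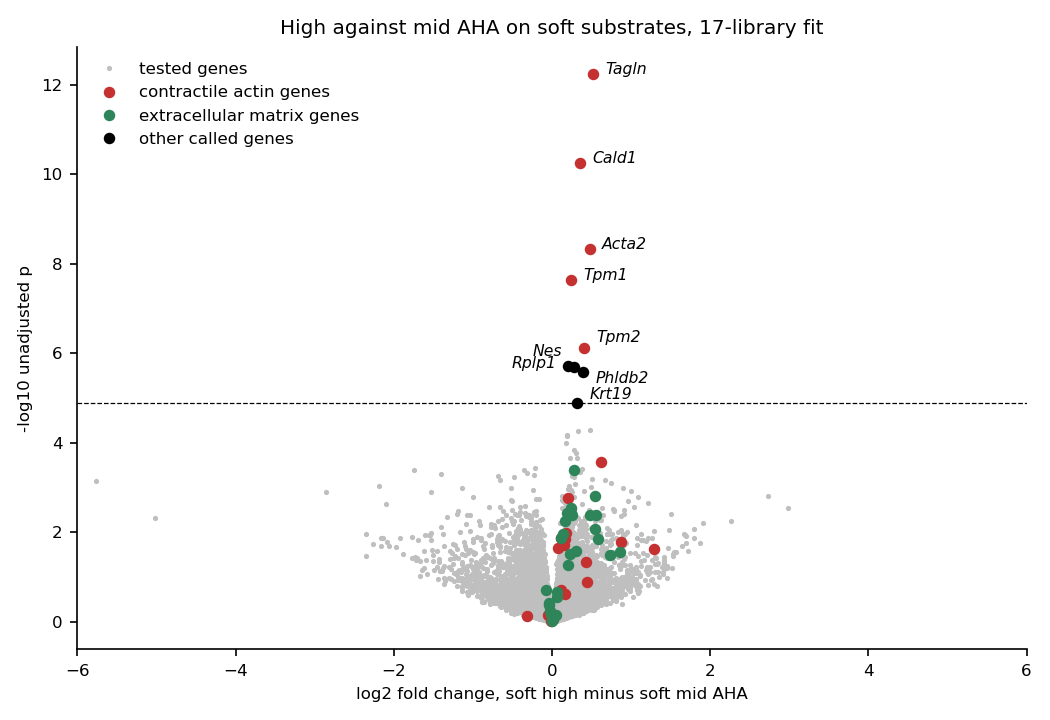
Log2 fold change of high minus mid AHA on soft substrates (x axis) against -log10 of the unadjusted p (y axis) for 13438 genes in the 17-library fit. Points on or above the dashed line are the 9 genes with an adjusted p under 0.05, all to the right of 0. Red marks contractile actin genes, green extracellular matrix genes and black the other called genes.

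Tagln codes for transgelin, an actin-bundling protein of smooth muscle and of other contractile cells. It had 129, 126 and 141 CPM in the 3 mid AHA libraries and 169, 196 and 181 CPM in high AHA replicates 1, 2 and 3. Every high AHA library lay above every mid AHA library, as in 5.76% of all tested genes. The log2 fold change was 0.52 ± 0.07 (SE, 95% interval 0.39 to 0.64, adjusted p = 7.82e-09, edgeR) without replicate 1 and 0.46 (adjusted p = 1.37e-08) with it. The gene lies at chr9:45929619-45936058 on the minus strand of GRCm38, and 67.9% of its exonic bases are overlapped by exons of the other strand. Whether counting used strand is not given in the sources used here, so reads of Tagln and its antisense partner cannot be told apart.

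Acta2 codes for smooth muscle alpha-actin (chr19:34241090-34255590, minus strand). Its level was 85.5, 88.0 and 91.5 CPM at mid AHA and 113, 123 and 123 CPM at high AHA. The groups did not overlap, again as in 5.76% of all tested genes. The log2 fold change was 0.48 ± 0.08 (SE, interval 0.33 to 0.63, adjusted p = 2.07e-05) with 17 libraries and 0.44 (adjusted p = 2.17e-05) with 18.

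Cald1 codes for caldesmon, which binds actin and tropomyosin and restrains myosin (chr6:34598500-34775473, plus strand). It was at 489, 533 and 502 CPM at mid AHA and at 568, 648 and 649 CPM at high AHA. The left-out library was nearest to mid AHA, and the log2 fold change was 0.35 ± 0.05 (SE, adjusted p = 3.70e-07) without it and 0.29 (adjusted p = 0.00479) with it.

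Tpm1 and Tpm2 code for tropomyosins, coiled coils that lie along actin filaments and decide which other proteins bind them. Tpm1 (chr9:67022590-67049406, minus strand) had 772, 778 and 787 CPM at mid AHA and 820.2, 936 and 908 CPM at high AHA. Its log2 fold change was 0.24 ± 0.04 (SE, adjusted p = 7.75e-05) with 17 libraries and 0.19 (adjusted p = 0.00479) with 18. Tpm2 (chr4:43514711-43523765, minus strand) was lower in level, at 84.4, 78.2 and 91.0 CPM against 102, 113 and 112 CPM. It rose by 0.41 ± 0.08 on the log2 scale (SE, adjusted p = 0.00206), or by 0.36 (adjusted p = 0.00479) with replicate 1. The other tropomyosin genes of the list did not pass: Tpm4 had a log2 fold change of 0.18 ± 0.07 (unadjusted p = 0.0104) and Tpm3 of 0.01 ± 0.08 (unadjusted p = 0.886). With 18 libraries they were 0.19 and 0.06.

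Nes codes for nestin and Krt19 for a type I keratin, both subunits of intermediate filaments. Nes (chr3:87971078-87980451, plus strand) had 205, 206 and 210.3 CPM at mid AHA and 215, 249.7 and 252 CPM at high AHA. The left-out library was close to mid AHA. The gene was called with 17 libraries (log2 fold change 0.28 ± 0.06, SE, adjusted p = 0.00385) and not with 18 (0.20, adjusted p = 0.101). Krt19 (chr11:100140810-100148665, minus strand) was at 122, 124 and 120.1 CPM against 138, 162 and 140.2 CPM. Its call was also lost with 18 libraries: the log2 fold change was 0.31 ± 0.07 (SE, adjusted p = 0.0195) without replicate 1 and 0.27 (adjusted p = 0.0541) with it. Nes is also a marker of neural progenitors. Of the 9 neuroectoderm markers listed, 6 passed the filter on low counts and none of the 6 had an unadjusted p under 0.05. Over all tested genes 3.74% were higher and 3.07% lower at that threshold. The summed level of the list was 138 to 147 CPM at mid AHA and 142 to 153 CPM at high AHA. Its median log2 fold change was 0.11, with 4 genes positive and 2 negative, or 0.03 with 18 libraries, with 4 positive and 1 negative. Pax6 had 74, 75 and 77 counts at mid AHA and 82, 104 and 74 at high AHA. Pax3 had 5, 1 and 3 against 13, 9 and 3, and Tubb3 had 577, 518 and 568 against 545, 547 and 490. Neurog2 had a single count in the 6 libraries.

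Phldb2 codes for a membrane-binding adaptor that helps to hold microtubules at the cortex next to focal adhesions (chr16:45746243-45953598, minus strand). Its level was 91.5, 81.2 and 89.7 CPM at mid AHA and 98.3, 119 and 110.1 CPM at high AHA. The log2 fold change was 0.39 ± 0.08 (SE, adjusted p = 0.00444) with 17 libraries and 0.32 (adjusted p = 0.0499) with 18. Rplp1, a subunit of the acidic stalk of the large ribosomal subunit (chr9:61913284-61914542, minus strand), was at 1106, 1082 and 1071 CPM against 1257, 1221 and 1274 CPM. It differed from the other 8 genes in that replicate 1 was not the lowest high AHA library, and its log2 fold change was 0.20 in both fits (adjusted p = 0.00385 and 0.000359). Ribosomal protein genes have many processed copies in the genome, and reads shared with them could be split or lost in counting. Dbn1, which codes for the actin-binding protein drebrin, was not called in the 17-library fit but was with 18 libraries. It had 125, 123 and 107 CPM at mid AHA and 143, 149.9 and 136 CPM at high AHA, and its log2 fold change was 0.27 in both fits (adjusted p = 0.129 with 17 libraries, 0.0499 with 18).

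**Figure D2:**
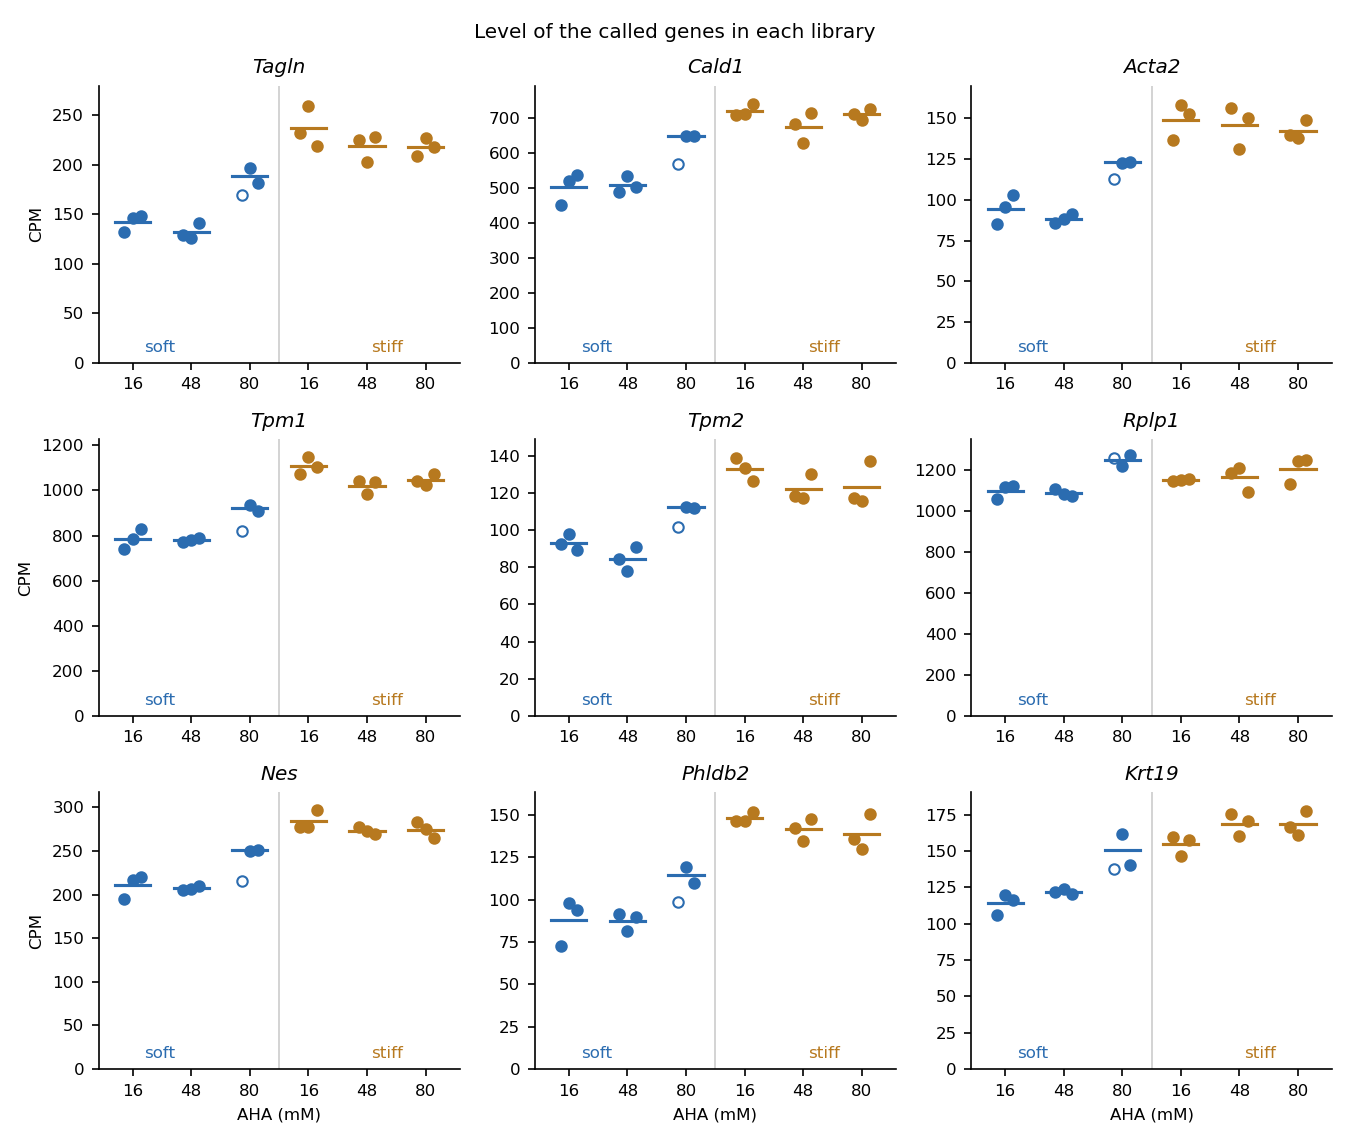
CPM (y axis, from 0) of the 9 called genes in each library of the 6 groups, by AHA concentration in mM (x axis) on soft (blue) and stiff (brown) substrates. Lines are group means and the open circle is soft, high AHA replicate 1, which is not in its mean. On soft substrates the high AHA mean lies above the mid and low AHA means, and its place above mid AHA was fixed by how the genes were called. The open circle lies above all 3 low AHA libraries in 7 of the 9 genes. On stiff substrates the 3 concentrations lie together.

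The choice of soft, high AHA libraries altered the size of the changes. Fold changes were smaller with all 3 libraries in 8 of the 9 genes, and replicate 1 was the lowest high AHA library in the same number. This library was above all 3 mid AHA libraries in each of the 9 genes, which were called for being low in those same mid AHA libraries. It was above all 3 low AHA libraries, which were not part of the comparison, in 7 of 9 genes, and over all tested genes this share was 27.8%. With replicate 2 left out in place of replicate 1, 5 genes were called, 4 higher and 1 lower, and 3 of the 9 were among them. With replicate 3 left out, 10 genes were called, 8 higher and 2 lower, and 6 of the 9 were among them. Tagln and Acta2 were called under each of the 18 alternative settings, Rplp1 under 17, Cald1 under 15, Tpm1 and Tpm2 under 13, Phldb2 under 10, Nes under 8 and Krt19 under 7. With a further soft library left out of the 17, Tagln, Acta2 and Cald1 were called in each case. Without high AHA replicate 2 the calls were lost for Tpm1 (adjusted p = 0.0827), Tpm2 (0.133), Nes (0.163), Phldb2 (0.554) and Krt19 (0.745), whose log2 fold change was then 0.19. Without high AHA replicate 3 they were lost for Nes (0.095) and Rplp1 (0.241). Without mid AHA replicate 2 they were lost for Tpm2 (0.0819), Phldb2 (0.151) and Krt19 (0.0608), without mid AHA replicate 1 for Nes (0.0542) and Krt19 (0.11), and without mid AHA replicate 3 for Krt19 (0.0946). Over all 6 libraries, 774 genes (5.76%) had every high AHA library above every mid AHA library and 758 (5.64%) had every one below.

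**Figure D3:**
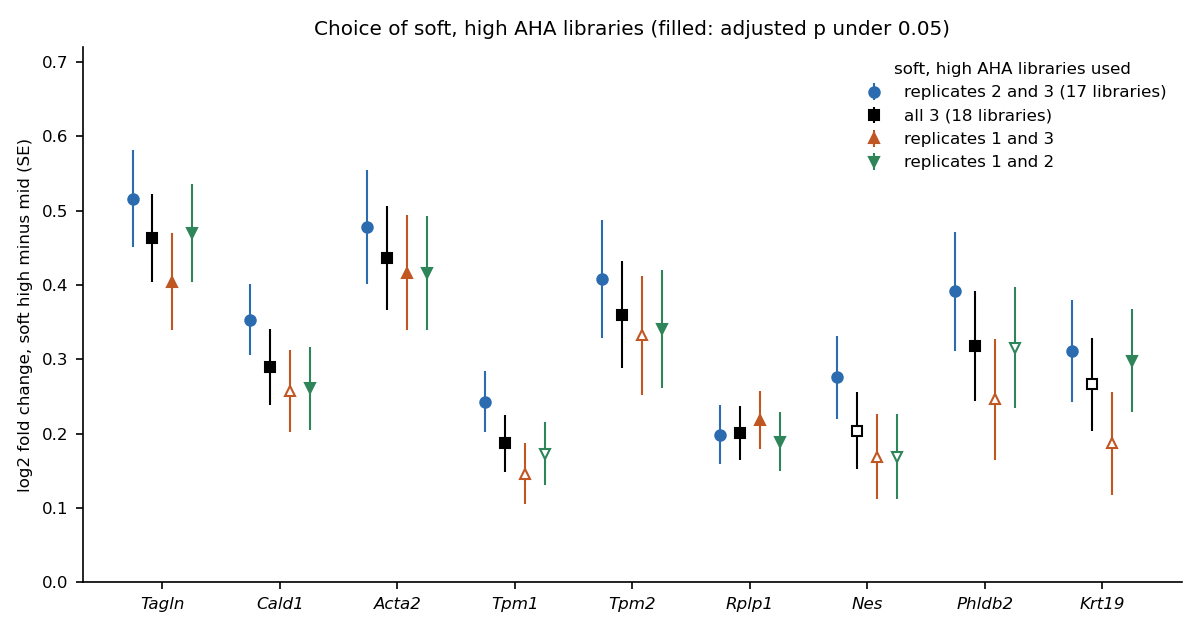
Log2 fold change of high minus mid AHA on soft substrates (y axis, bars are SE) for the 9 called genes, with 4 choices of the soft, high AHA libraries. Filled symbols have an adjusted p under 0.05; Tagln, Acta2 and Rplp1 are filled under all 4 choices, and Nes is filled only with replicates 2 and 3.

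The same AHA step on stiff substrates was read from 6 other libraries. There 1 gene was called (0.00744%), Trrap, a scaffold of histone acetyltransferase complexes, which fell by 0.26 on the log2 scale (SE 0.05, adjusted p = 0.00092). On soft substrates the same gene had a log2 fold change of -0.05 ± 0.05, or -0.08 with 18 libraries. None of the 9 genes was called on stiff substrates. Tagln had a log2 fold change of -0.01 ± 0.06 there (95% interval -0.12 to 0.11) and Acta2 of -0.03 ± 0.07 (interval -0.16 to 0.10). Cald1 was at 0.08 ± 0.04, Tpm1 at 0.04 ± 0.04, Tpm2 at 0.02 ± 0.07 and Krt19 at 0.00 ± 0.06. A test of the difference between the soft and the stiff change called 2 genes (0.0149%), Tagln (0.52 ± 0.09 log2, SE, adjusted p = 0.000159) and Acta2 (0.51 ± 0.10, adjusted p = 0.0101). With 18 libraries the differences were 0.47 (adjusted p = 0.000896) and 0.47 (adjusted p = 0.0211). The call for Acta2 was lost under 12 of 22 alternative settings, with adjusted p-values of up to 0.249. For the other 7 genes the difference was 0.15 to 0.41 and did not pass, with Phldb2 at 0.41 ± 0.11 (adjusted p = 0.235) and Rplp1 at 0.15 ± 0.05 (adjusted p = 0.755). Of these, Cald1 was called with a filter of 2 counts, without soft, mid AHA replicate 2 and without stiff, mid AHA replicate 2.

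The high AHA level on soft substrates lay between the soft, mid AHA level and the stiff levels. This held for the group means of 8 of the 9 genes, all but Rplp1, where the part of it above mid AHA was fixed by how the genes were called, and for 8.66% of all tested genes. In 6 of the 9 every soft, high AHA library was below every stiff library, as in 2.26% of all tested genes. Tagln averaged 132 ± 7.99 CPM (SD, n = 3) at soft mid AHA, 189 ± 10.7 (n = 2) at soft high AHA and 219 ± 14.1 (n = 3) at stiff mid AHA. Tpm1 averaged 779 ± 7.48, 922 ± 20.3 and 1020.4 ± 32.3 CPM in the same groups. At low AHA, in libraries outside the comparison, 8 of the 9 were lower on soft than on stiff substrates, where 294 of all tested genes (2.19%) were called lower on soft. The log2 differences there were -0.73 ± 0.06 for Tagln, -0.75 ± 0.07 for Phldb2, -0.65 ± 0.07 for Acta2 and -0.43 ± 0.05 for Nes. Rplp1 was at -0.07 ± 0.04 and was not called.

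Between mid and low AHA on soft substrates no gene was called by edgeR, although a filter of 2 counts gave 4 calls, 2 higher and 2 lower. At an unadjusted p under 0.05 in the 17-library fit, 426 genes were higher and 394 lower at mid AHA. The log2 difference of mid minus low AHA was -0.11 ± 0.06 for Tagln (95% interval -0.23 to 0.01), 0.01 ± 0.04 for Cald1 (interval -0.07 to 0.10) and -0.01 ± 0.04 for Tpm1 (interval -0.09 to 0.06). High minus low AHA, which shares the high AHA libraries with the main comparison, called 29 genes higher (0.216%) and 5 lower (0.0372%), or 30 higher and 15 lower with 18 libraries. The 9 genes were called in those same high AHA libraries, so their values in this contrast are given side by side only. Tagln differed by 0.41, Cald1 by 0.37 and Krt19 by 0.41 on the log2 scale. Tpm2 differed by 0.27 ± 0.08 and was not called (adjusted p = 0.137).

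Contractile actin genes, a list of 22 actins, transgelins, calponins, tropomyosins and myosin subunits, all passed the filter on low counts. A total of 5 were called, where 0.0670% of all tested genes were. At an unadjusted p under 0.05, 15 were higher and 0 lower, beside 3.74% and 3.07% of all tested genes. With 18 libraries 5 were called, 10 were higher and 0 lower, beside 3.44% and 3.72%. The median log2 fold change of the list was 0.19 with 17 libraries and 0.17 with 18, beside 0.00 over all tested genes in either fit. With 1 mid or high AHA library left out of the 17 the list median was 0.16 to 0.30. On stiff substrates the median was 0.01, with 1 member higher and 3 lower at an unadjusted p under 0.05, where 2.70% of all genes were higher and 3.13% lower. In 8 members every soft, high AHA library was above every mid AHA library and in 0 below, beside 5.76% and 5.64% of all tested genes. At low AHA 11 members were lower on soft than on stiff substrates and 0 higher, beside 2.19% and 0.848% of all tested genes.

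Calponins bind actin and slow its turnover. Cnn1 ranged from 13.6 to 19.4 CPM at mid AHA and had 15.8, 32.9 and 20.1 CPM at high AHA, and its log2 fold change of 0.62 ± 0.17 (unadjusted p = 0.00027, adjusted p = 0.191) came with overlapping groups, only replicate 2 being far above mid AHA. Cnn2 was at 158, 148 and 152 CPM against 159, 186 and 164 CPM (0.20 ± 0.06, adjusted p = 0.383). The cardiac actin gene Actc1 was low but did not overlap between groups, at 3.95, 2.86 and 2.45 CPM against 5.04, 6.23 and 5.12 CPM. The heavy chains of non-muscle myosin II, Myh9 and Myh10, which make the force, differed little: Myh9 by 0.08 ± 0.04 and Myh10 by 0.11 ± 0.04 on the log2 scale, with -0.08 ± 0.03 and -0.12 ± 0.04 on stiff substrates. Myosin light chains ranged from -0.05 ± 0.14 for Myl12b to 0.43 ± 0.21 for Myl9. The smooth muscle actin Actg2 was near the floor, at 0.319 to 0.894 CPM. With 18 libraries the log2 fold changes were 0.41 for Cnn1, 0.16 for Cnn2, 0.82 for Actc1, 0.07 for Myh9, 0.08 for Myh10, -0.10 for Myl12b and 0.24 for Myl9.

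**Figure D4:**
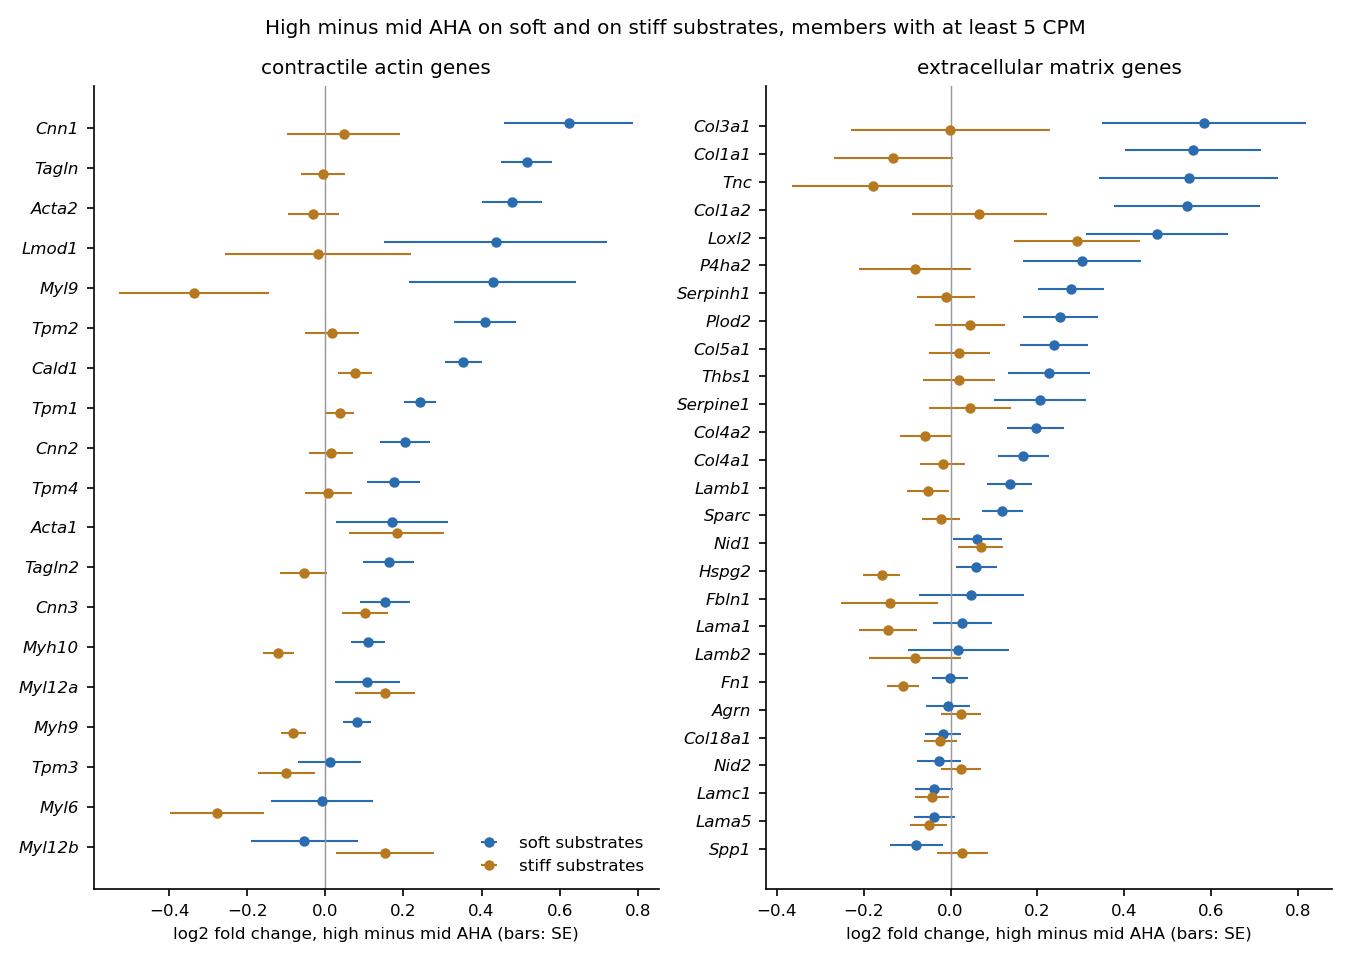
Log2 fold change of high minus mid AHA (x axis, bars are SE) on soft (blue) and stiff (brown) substrates for contractile actin genes (left) and extracellular matrix genes (right) with a mean of at least 5 CPM in the 6 soft libraries. On soft substrates the upper members of both lists lie right of 0 by up to 0.62 and 0.58, while on stiff substrates most lie near 0.

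Promoter sequence was read for the called genes, which rose together, and for the contractile and extracellular matrix lists. RefSeq windows of GRCm38.p6 from 250 bases before to 50 bases after a transcript start were matched by symbol to 10516 of the 13438 tested genes, including 6 of the 9 called genes, 20 of the 22 contractile genes and 19 of the 29 matrix genes. Tagln, Rplp1 and Krt19 had no window. The CArG box, to which SRF binds, was searched only as an exact match to CC, then 6 A or T, then GG, on either strand. Boxes that depart from these letters were not counted, so a gene without a match may still hold one. The exact form was found in 0 of 6 called genes, in 5 of 20 contractile genes (25.0%), in 0 of 19 matrix genes and in 164 of all genes (1.56%). The 5 windows that hold it are shown with the box in capitals, 5′ to 3′ on the gene's strand, at chr8:123894829-123894858 (Acta1, minus), chr2:114052903-114052932 (Actc1, minus), chr10:79988534-79988563 (Cnn2, plus), chr10:128493040-128493069 (Myl6, minus) and chr2:156775293-156775322 (Myl9, plus).
Acta1: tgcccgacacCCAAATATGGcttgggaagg
Actc1: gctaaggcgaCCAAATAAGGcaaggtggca
Cnn2: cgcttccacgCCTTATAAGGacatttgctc
Myl6: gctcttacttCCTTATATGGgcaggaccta
Myl9: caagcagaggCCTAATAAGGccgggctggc

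Among these 5 genes the log2 fold change on soft substrates was 0.88 ± 0.36 for Actc1, 0.43 ± 0.21 for Myl9, 0.20 ± 0.06 for Cnn2, 0.17 ± 0.14 for Acta1 and -0.01 ± 0.13 for Myl6, and none was called. With 18 libraries Acta1 was at 0.09 and Myl6 at -0.04. The TEAD letters GGAATG, on either strand, were found in 3 of the 6 called genes, in 9 of the 20 contractile genes (45.0%), in 3 of the 19 matrix genes (15.8%) and in 1512 of all genes (14.4%). They are shown in capitals for the 3 called genes, each on the gene's own strand, at chr19:34255504-34255529 (Acta2, minus), chr6:34598341-34598366 (Cald1, plus) and chr9:67049254-67049279 (Tpm1, minus). They begin 146, 153 and 56 bases before the RefSeq transcript start of the window. For Acta2 and Tpm1 that start lies inside the gene span given above, which is GENCODE's and begins further upstream, so their letters fall within that span.
Acta2: gcagaacagaGGAATGcagtggaaga
Cald1: gcatgcctagGGAATGacaggcatct
Tpm1: gctgtcctaaGGAATGcggtcgcccc

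The AP-1 letters TGANTCA were found in 1 of the 6 called genes, Cald1, in 3 of the 20 contractile genes (15.0%), in 1 of the 19 matrix genes (5.26%) and in 6.00% of all genes. The SP1 letters GGGCGG, common in promoters with many CpG pairs, were in 5 of the 6, in 15 of the 20, in 14 of the 19 and in 69.6% of all genes. A match is a string of letters in a window and was not measured as a bound site.

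Extracellular matrix genes were the other list with many members on the high side. Of 30 genes, 29 were tested (Vtn was not) and none was called, but 16 were higher and 0 lower at an unadjusted p under 0.05, beside 3.74% and 3.07% of all tested genes. With 18 libraries 13 were higher and 0 lower, beside 3.44% and 3.72%. In 12 members every high AHA library was above every mid AHA library and in 1 below, beside 5.76% and 5.64% of all tested genes. The median log2 fold change was 0.17 with 17 libraries and 0.16 with 18, and 0.10 to 0.24 with 1 mid or high AHA library left out of the 17. On stiff substrates it was -0.02, with 1 member higher and 3 lower at an unadjusted p under 0.05, beside 2.70% and 3.13% of all tested genes. At low AHA 13 members were lower on soft than on stiff substrates and 1 was higher, beside the same 2.19% and 0.848%.

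The fibrillar collagens make tension-bearing fibres. Col1a1 was at 88.8, 99.6 and 108 CPM at mid AHA and at 129, 141 and 151 CPM at high AHA (log2 fold change 0.56 ± 0.16, adjusted p = 0.464), and it was called by fits of these 2 groups alone, with a filter of 2 counts and without stiff, mid AHA replicate 1. Col1a2 was at 14.5, 20.4 and 19.8 CPM against 22.4, 25.2 and 28.0 CPM (0.54 ± 0.17, adjusted p = 0.363). Neither pair of groups overlapped. Col3a1 had 7.43, 7.33 and 9.80 CPM against 11.1, 13.1 and 11.4 CPM (0.58 ± 0.23), and Col5a1 differed by 0.24 ± 0.08. Serpinh1, the collagen chaperone, was at 105, 107 and 105 CPM against 99.4, 137 and 118 CPM, with replicate 1 below mid AHA (0.28 ± 0.08 without it, 0.16 with it). The basement membrane collagens Col4a1 and Col4a2 differed by 0.17 ± 0.06 and 0.20 ± 0.07. Loxl2 and Plod2, which crosslink or modify collagen, differed by 0.48 ± 0.16 and 0.25 ± 0.09, and the matricellular genes Tnc and Sparc by 0.55 ± 0.21 and 0.12 ± 0.05. Fn1, which codes for fibronectin, the protein that coats the gels, was at 1016 to 1148 CPM at mid AHA and 1033 to 1157 CPM at high AHA, a log2 difference of 0.00 ± 0.04. With 18 libraries the log2 fold changes were 0.50 for Col1a1, 0.47 for Col1a2, 0.54 for Col3a1, 0.24 for Col5a1, 0.42 for Loxl2, 0.21 for Plod2, 0.56 for Tnc, 0.12 for Sparc and 0.03 for Fn1, and 0.16 for both Col4a1 and Col4a2.

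Col1a1, Col1a2 and Col3a1 are also markers of fibroblasts. Of 11 fibroblast markers, 7 passed the filter on low counts, of which 3 were higher and 1 lower at an unadjusted p under 0.05 (3 and 0 with 18 libraries), beside 3.74% and 3.07% of all tested genes (3.44% and 3.72% with 18). The summed level of the list was 125 to 158 CPM at mid AHA and 185 to 207 CPM at high AHA, and these 3 collagens made up most of it. The other 8 markers summed to 14.7 to 19.6 CPM at mid AHA and 14.1 to 22.4 CPM at high AHA, so that the groups overlapped. Pdgfrb had 30, 28 and 40 counts at mid AHA and 44, 18 and 16 at high AHA, and Prrx1 had 5, 9 and 6 counts against 2, 0 and 4. Postn had 2, 12 and 10 counts at mid AHA and 23, 14 and 10 at high AHA, and Twist1 had 37, 33 and 44 against 40, 40 and 31. The median log2 fold change of the 7 tested markers was 0.54, or 0.47 with 18 libraries. Lum had 0 counts in all 6 libraries, Fap had 2 in 1 high AHA library, Dcn 2 to 4 counts at mid AHA and 0 or 1 at high AHA, and Thy1 14 to 17 counts at mid AHA and 15 to 25 at high AHA. In these bulk samples more cells of a type and more RNA per cell cannot be told apart.

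**Figure D5:**
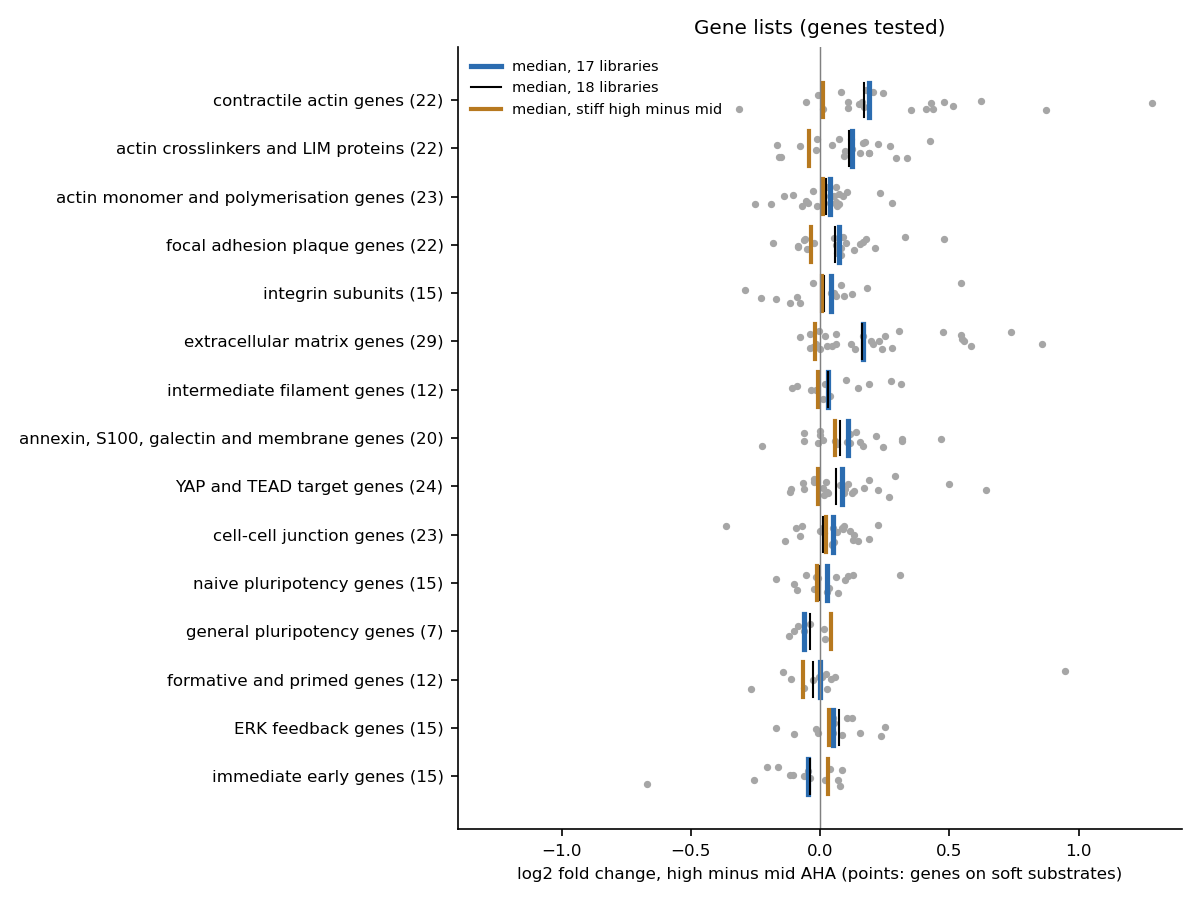
Log2 fold change of high minus mid AHA on soft substrates for each gene (grey points, x axis) of 15 lists, with the list median from 17 libraries (blue), from 18 libraries (black) and on stiff substrates (brown); the number of genes tested is in parentheses. Among the 15 lists drawn, contractile actin and extracellular matrix genes have the highest soft medians, 0.19 and 0.17.

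Genes that join actin to adhesions lay between. Of 22 actin crosslinkers and LIM domain proteins, 7 were higher and 1 lower at an unadjusted p under 0.05, with a median of 0.12 (0.11 with 18 libraries, -0.04 on stiff substrates). With 18 libraries 4 were higher and 1 lower. For these lists and those that follow, the shares over all tested genes were 3.74% higher and 3.07% lower with 17 libraries and 3.44% and 3.72% with 18. The crosslinker gene Actn1 (alpha-actinin) had 614, 638 and 692 CPM at mid AHA and 711, 722 and 739 CPM at high AHA (0.17 ± 0.04, adjusted p = 0.0953). Its groups did not overlap, and 5.76% of all tested genes had every high AHA library above every mid AHA library. Palld (palladin) was at 87.7, 87.7 and 81.5 CPM against 93.8, 109 and 107 CPM (0.33 ± 0.08, adjusted p = 0.0673). Flna (filamin A) differed by 0.12 ± 0.04. Among 22 focal adhesion plaque genes tested of 24, 4 were higher and 1 lower, with a median of 0.08. With 18 libraries 2 were higher and 2 lower, with a median of 0.06. Parva, which codes for the actin-binding partner of integrin-linked kinase, had 34.8, 34.2 and 37.3 CPM against 36.7, 54.4 and 43.7 CPM. The fold change of Parva was 0.48 ± 0.11 without replicate 1 (adjusted p = 0.0673) and 0.35 with it (adjusted p = 0.361). Lpp was at 0.18 ± 0.07 and Vcl (vinculin) at 0.13 ± 0.05. With 18 libraries the log2 fold changes were 0.16 for Actn1, 0.27 for Palld, 0.10 for Flna, 0.12 for Lpp and 0.07 for Vcl.

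Integrin subunits differed little: of 15 tested, 2 were higher and 0 lower at an unadjusted p under 0.05, with a median of 0.04. These were Itgb1, the common beta subunit of fibronectin receptors (0.12 ± 0.05 on soft and also 0.12 ± 0.04 on stiff substrates), and Itgav (0.18 ± 0.08 on soft, 0.01 ± 0.07 on stiff). Itgb8, the next by p, was at 0.54 ± 0.35. Actin monomer and polymerisation genes had 2 higher and 2 lower of 23 and a median of 0.04, with Tmsb4x, the actin monomer buffer thymosin beta 4, at 185, 162 and 183 CPM against 196, 208 and 222 CPM (0.28 ± 0.09, adjusted p = 0.464). Tmsb10 was at 0.23 ± 0.10 and the formin gene Diaph2 at -0.25 ± 0.11. With 18 libraries 1 integrin gene was higher and 0 lower, and 1 polymerisation gene was higher and 2 lower. The log2 fold changes were then 0.08 for Itgb1, 0.21 for Itgav, 0.34 for Itgb8, 0.24 for Tmsb4x, 0.15 for Tmsb10 and -0.20 for Diaph2.

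Among 12 intermediate filament genes, Nes and Krt19 were called, 4 in all were higher and 0 lower at an unadjusted p under 0.05, and the list median was 0.03. Over all tested genes 0.0670% were called, 3.74% were higher and 3.07% lower. Krt18 was at 546, 558 and 606 CPM against 575, 674 and 624 CPM (0.19 ± 0.05, adjusted p = 0.0712). Vim (vimentin) was at 523, 491 and 533 CPM against 574, 563 and 577 CPM (0.14 ± 0.05, adjusted p = 0.383). Its groups did not overlap, as in the 5.76% of all tested genes with every high AHA library above every mid AHA library. In the list of annexin, S100, galectin and membrane genes, 4 of 20 tested were higher and 0 lower, with a median of 0.11, and the members with the lowest p were Rdx (0.15 ± 0.05), Anxa1 (0.24 ± 0.09) and Lgals1 (0.22 ± 0.08). With 18 libraries 4 intermediate filament genes were higher and 0 lower and none was called, and in the annexin list 3 were higher and 1 lower. The log2 fold changes were then 0.13 for Krt18, 0.15 for Vim, 0.10 for Rdx, 0.11 for Anxa1 and 0.20 for Lgals1.

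YAP and TEAD target genes had 4 members higher and 1 lower of 24 at an unadjusted p under 0.05, a median of 0.08 (0.06 with 18 libraries, -0.01 on stiff substrates) and none called. Tgfb2, a ligand of the TGF-beta family, had 22.8, 20.2 and 21.4 CPM at mid AHA and 27.3, 26.8 and 34.3 CPM at high AHA (0.50 ± 0.15, adjusted p = 0.303). Fstl1, a secreted glycoprotein, differed by 0.29 ± 0.08 and Myof (myoferlin) by 0.22 ± 0.08, or by 0.30 with 18 libraries (adjusted p = 0.0751). In these 3 genes every high AHA library lay above every mid AHA library, as in 5.76% of all tested genes. Cell-cell junction genes had 0 of 23 in either direction, and Dsp, Cdh2 and Pkp2 were at 0.09 ± 0.05, 0.19 ± 0.11 and 0.13 ± 0.08. With 18 libraries 4 target genes were higher and 2 lower, and 0 junction genes were higher and 1 lower. The log2 fold changes were then 0.45 for Tgfb2, 0.24 for Fstl1, 0.05 for Dsp, 0.17 for Cdh2 and 0.06 for Pkp2.

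Pluripotency genes were not called in either direction. With 0.0670% of all tested genes called, lists this short would seldom hold a call, so its absence says little about them. Of 15 naive genes, 0 were higher and 1 lower at an unadjusted p under 0.05, and the median was 0.03, or 0.00 with 18 libraries. Esrrb, an orphan nuclear receptor of the naive network, was at 329.7, 362 and 311 CPM at mid AHA and 331, 301 and 293 CPM at high AHA (-0.17 ± 0.05, 95% interval -0.27 to -0.06, adjusted p = 0.383), with overlapping groups. Nanog was at 0.11 ± 0.07 (interval -0.04 to 0.25) with 17 libraries and 0.02 with 18. Tfcp2l1 was at -0.09 ± 0.06 and Zfp42 at -0.05 ± 0.06. Among 7 general genes, 0 were higher and 1 lower, with a median of -0.06. Sox2 had 349, 365 and 333 CPM at mid AHA and 319, 319 and 323 CPM at high AHA (-0.12 ± 0.05, interval -0.22 to -0.01, adjusted p = 0.653). Its groups did not overlap, and 5.64% of all tested genes had every high AHA library below every mid AHA library. Pou5f1 differed by 0.01 ± 0.05 (interval -0.08 to 0.11), Utf1 by -0.10 ± 0.06 and Sall4 by -0.04 ± 0.04. Dppa5a differed by 0.06 ± 0.07. With 18 libraries 0 naive genes were higher and 1 lower, and 0 general genes were higher and 2 lower. The log2 fold changes were then -0.12 for Esrrb and Sox2, -0.01 for Tfcp2l1 and Pou5f1, -0.08 for Zfp42, -0.11 for Utf1, -0.06 for Sall4 and 0.05 for Dppa5a.

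Among 12 formative and primed genes, 1 was higher and 0 lower, with a median of 0.00. This was Fgf5, a marker of the primed epiblast, at 2.69, 3.22 and 3.59 CPM against 3.82, 5.43 and 6.89 CPM (0.95 ± 0.36, interval 0.23 to 1.67, adjusted p = 0.544). Sox3 was at -0.27 ± 0.23 and Etv4 at -0.14 ± 0.10. With 18 libraries 1 was again higher and 0 lower, and the log2 fold changes were 0.75 for Fgf5, -0.29 for Sox3 and -0.05 for Etv4.

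Signalling targets gave no call. Over all tested genes 0.0670% were called, a share at which lists of this size seldom hold a call. Immediate early genes, several of them SRF targets that respond to growth factors, had 0 of 15 higher and 2 lower at an unadjusted p under 0.05, with a median of -0.05. Nr4a1 was at 76.3, 71.0 and 66.2 CPM against 59.4, 57.3 and 62.2 CPM (-0.26 ± 0.10). Its groups did not overlap, as in the 5.64% of all tested genes with every high AHA library below every mid AHA library. Fosb was at -0.67 ± 0.33, and at -1.41 to -0.24 with 1 mid or high AHA library left out of the 17. Ier2 was at -0.10 ± 0.08. ERK feedback genes had 1 of 15 higher, Dusp4 (0.23 ± 0.07), and 1 lower, Spry4 (-0.17 ± 0.07), with Spred1 at 0.12 ± 0.07. The LIF, JAK and STAT3 list had 0 of 12 higher and 2 lower, Lifr (-0.19 ± 0.07) and Lif (-0.36 ± 0.18), and Socs2 was at -0.15 ± 0.10. Nodal, TGF-beta and BMP genes had 0 of 17 in either direction (Tdgf1 0.12 ± 0.06, Id1 -0.16 ± 0.09, Lefty1 0.24 ± 0.17), and Wnt pathway genes had 1 of 14 higher, Nkd1 (0.75 ± 0.31, or 0.32 without high AHA replicate 2), with Wnt7b at -0.18 ± 0.10 and Znrf3 at -0.19 ± 0.11. With 18 libraries the counts higher and lower were 0 and 1 of the immediate early genes, 1 and 1 of the ERK feedback genes, 0 and 2 of the LIF list, 1 and 1 of the Nodal list and 1 and 1 of 13 Wnt genes, and none was called. The log2 fold changes were then -0.26 for Nr4a1, -0.45 for Fosb, 0.15 for Dusp4, -0.16 for Spry4, 0.04 for Spred1, -0.16 for Lifr and Lif, -0.24 for Id1 and Wnt7b, and 0.63 for Nkd1.

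Among 77 cytosolic ribosomal protein genes, Rplp1 alone was called and 2 were higher and 0 lower at an unadjusted p under 0.05, with a median of -0.01. Over all tested genes 0.0670% were called, 3.74% were higher and 3.07% lower. The second was Rpl22 (0.10 ± 0.05, or 0.13 with 18 libraries). The mitochondrial genome list had a median of -0.11 with 17 libraries and 0.00 with 18, with 0 of 13 past an unadjusted p of 0.05. The lists for cell cycle, p53, glycolysis, hypoxia, cholesterol synthesis, ATF4 stress, heat shock and nuclear oxidative phosphorylation had medians between -0.03 and 0.05 with 17 libraries, between -0.05 and 0.06 with 18, and no call in either. Of the markers of other lineages, primitive endoderm had 1 of 10 tested genes higher, Cubn, at 6.48, 6.62 and 9.48 CPM against 17.7, 7.82 and 17.1 CPM (0.70 ± 0.26 without replicate 1, 0.90 with it, adjusted p = 0.541 and 0.101). The value of Cubn was 0.05 without high AHA replicate 3 and 1.18 without replicate 2, and with replicate 1 in place of replicate 2 the gene was called (1.21, adjusted p = 0.00265). Gata6 had 21 to 27 counts at mid AHA and 21 to 28 at high AHA, and Sox7 had 23, 29 and 21 against 40, 31 and 29. The primitive endoderm list summed to 48.4 to 57.0 CPM at mid AHA and to 75.7, 51.1 and 71.1 CPM at high AHA. Its median log2 fold change was 0.05 with 17 libraries and 0.20 with 18, with 7 genes positive and 3 negative in each fit. Mesendoderm and trophoblast markers had 0 of 6 each past an unadjusted p of 0.05.

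No gene passed the test in the lower direction in the fits of 17 and of 18 libraries, but 7 of 24 alternative settings called 1 or 2 genes lower. The 10 lowest p-values among genes with at least 5 CPM that were lower at high AHA belonged to Dock6, Adar, Lpcat1, Ptch1, Fam219b, Mast3, Actr6, St3gal4, Ippk and Ccdc117, with adjusted p-values of 0.225 to 0.308. Dock6, an exchange factor for Rac and Cdc42, was at 249.9, 245 and 239 CPM at mid AHA and 224, 224 and 198 CPM at high AHA (-0.21 ± 0.06, 95% interval -0.33 to -0.10). Ptch1, the receptor and target of Hedgehog signalling, was at 209, 219 and 205 CPM against 182, 171 and 191 CPM (-0.22 ± 0.06 on soft and -0.14 ± 0.06 on stiff substrates). The groups did not overlap in these genes, nor in Ccdc117 (-0.24 ± 0.07), Fam219b (-0.68 ± 0.19) and Actr6 (-0.66 ± 0.19), and 5.64% of all tested genes had every high AHA library below every mid AHA library. Adar (-0.35 ± 0.10), Lpcat1 (-0.32 ± 0.09), Mast3 (-0.48 ± 0.14) and St3gal4 (-1.13 ± 0.34) were lower mainly in replicates 2 and 3, and their fold changes with replicate 1 were -0.23, -0.23, -0.33 and -0.41. For Dock6, Ptch1, Ccdc117, Fam219b and Actr6 they were -0.18, -0.22, -0.25, -0.47 and -0.49.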

How the data were processed

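Total RNA of E14 mESCs was sequenced by the authors with a pico-input mammalian kit. Reads were trimmed with Trim Galore 0.4.4 and aligned with GSNAP (2015-09-29) to GRCm38/mm10, and HTSeq counted reads per Ensembl gene. The strand setting of HTSeq is not given in the sources used here. The deposited values were raw read counts of 46078 genes, 92 ERCC and 7 SIRV spike-ins and 5 HTSeq summary lines. The summary lines made up 61.5 to 64.0% of a column, and spike-in and summary lines entered neither library sizes nor tests. GENCODE M21 named 45143 genes.

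Groups followed the labels, and replicates were numbered in sample order. Protein-coding genes passing filterByExpr (minimum count 10) were analysed with TMM factors in edgeR 4.0.16 (robust quasi-likelihood, R 4.3.3) with a coefficient per group over 6 groups. The main fit left out soft, high AHA replicate 1 for its ERCC share, as the study set aside such libraries, and a second fit kept it. The main fit had a biological coefficient of variation of 5.35%. Contrasts were high minus mid AHA on soft and on stiff substrates, their difference, and soft and low AHA contrasts for context. P-values were adjusted by Benjamini-Hochberg over all genes, and a gene was called when the adjusted p was under 0.05. SE came from the F statistic. Fold changes are log2, and CPM is scaled with TMM. Fits were tested on simulated data.

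Alternatives were other choices of soft, high AHA libraries, each replicate left out, RLE and upper quartile scaling, DESeq2 1.42.0, a filter of 2 counts, all biotypes, and fits of the 2 groups only. Promoter windows were RefSeq sequences of GRCm38.p6.

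The members, gene lists and naming rule were chosen with earlier results of these data known. Genes named were those called on soft substrates with 17 or 18 libraries, on stiff substrates or in the difference, the 10 lowest p in each direction among genes with a mean of at least 5 CPM, and the 3 lowest p of each list. Further contractile, matrix, intermediate filament and pluripotency members were named after their values were seen. Members of the metabolic, stress, cell cycle and lineage lists were mostly given by counts. Some results are not reported here.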

Additional observations from a re-analysis of the deposited data

Results flagged for a closer look

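The change from mid to high AHA differed between soft and stiff substrates in 2 genes. For Tagln the soft change exceeded the stiff change by 0.52 on the log2 scale (SE 0.09, adjusted p = 0.000159, edgeR). For Acta2 the difference was 0.51 (SE 0.10, adjusted p = 0.0101). The difference for Tagln kept an adjusted p under 0.05 in each of 22 alternative fits (0.41 to 0.58), whereas for Acta2 it was lost in 12 of 22 (0.44 to 0.58).

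The ERCC share of soft, high AHA replicate 1 was 1.37%, outside the range of the other 17 libraries. The library took no part in the 17-library fit, and its gene count of 8368867 lay within the range of the others (5850621 to 9290261).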

How the results depend on the processing

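With 9 genes called on soft substrates, the count was 16 with a filter of 2 counts (15 higher, 1 lower), 5 with replicate 1 in place of replicate 2 of soft, high AHA, and 4 to 12 with each replicate left out in turn, the lowest without soft, high AHA replicate 2. On stiff substrates the count of 1 became 10 with a filter of 2 counts, 7 with edgeR on the 2 groups alone (1 with DESeq2 on them) and 0 to 5 with replicates left out, 0 without stiff, mid AHA replicate 3 or stiff, high AHA replicate 3 and 5 without stiff, high AHA replicate 1. The count of 2 for the difference was 1 with DESeq2, 1 with replicate 1 in place of replicate 3, 3 with a filter of 2 counts, 3 with replicate 1 in place of replicate 2, and 1 to 4 with replicates left out. Keeping all 18 libraries and leaving out a soft, mid AHA replicate was chosen after seeing the data. It gave 5 soft calls without replicate 2, and 1 call in the difference without replicate 1 and 1 without replicate 2. RLE and upper quartile scaling left the soft count at 9. Over named genes, 1625 values kept their direction and side of the threshold, 55 lost and 23 gained a call, and 44 changed sign. The cause was not tested.

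Signs turned in genes that were not called, all log2 values. With 18 libraries Fn1 was 0.034 and Pou5f1 -0.012. With replicate 1 in place of replicate 2, Acta1 was -0.14, Actg2 0.20, Fn1 0.079, Pkp2 -0.044, Tfcp2l1 0.048, Nanog -0.041, Spred1 -0.0064 and Pou5f1 -0.045. With it in place of replicate 3, Fn1 was 0.026, Tfcp2l1 0.0012, Nanog -0.011, Etv4 0.029, Pou5f1 -0.0020 and Dppa5a -0.038. With 18 libraries and no soft, mid AHA replicate 1, Etv4 was 0.039. Without replicate 2 of that group, Acta1 was -0.048, Actg2 0.38, Fn1 0.085, Pkp2 -0.0054, Tfcp2l1 0.010 and Pou5f1 -0.034. Without replicate 3, Myl6 was 0.048, Fn1 0.027, Nanog -0.026, Lif 0.0043 and Pou5f1 -0.025. With each replicate left out of the 17, ranges were -0.21 to 0.44 for Acta1, -0.76 to 0.13 for Actg2, -0.041 to 0.059 for Tpm3, -0.00075 to 0.31 for Tpm4, -0.11 to 0.092 for Myl6, -0.26 to 0.10 for Myl12b, -0.059 to 0.048 for Fn1, -0.034 to 0.052 for Pou5f1, -0.11 to 0.21 for Dppa5a and -0.17 to 0.054 for Trrap.

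No paired analysis was possible because the labels give no replicate number that groups share. With 2 soft, high AHA libraries, leaving out either leaves 1, which is then assumed to vary like the other groups. The 95% intervals of the low genes Fgf5, Nkd1 and St3gal4 spanned over 1 log2 unit, which limits the differences that were detectable in such genes at this depth.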
